A study of Mus musculus with 16 samples.

Results

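Fcgrt, B2m and Pigr encode the receptor proteins that carry antibodies across the intestinal epithelium. They were picked by symbol for that role, without a cut on their values but with earlier results of these data known. They are 3 of the 24421 genes in the count tables. All 3 were among the 13429 genes with enough counts to be tested. The libraries came from wild-type C57BL6/J mice at postnatal day 6 (P6), in the suckling period, and postnatal day 36 (P36), after weaning. At each age 2 female and 2 male mice each gave a jejunum and an ileum segment, which makes 4 groups of 4 libraries (P6 jejunum, P6 ileum, P36 jejunum and P36 ileum) with the same replicate number for both segments of a mouse. Epithelial cells were released from the opened segment with EDTA, and their polyadenylated RNA was sequenced in bulk, so all epithelial cell types of a segment, with any other cell that came off, are read together. In such bulk RNA, fewer cells of a type and less RNA per cell cannot be told apart.

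Fcgrt encodes the heavy chain of the neonatal Fc receptor, which binds IgG at acidic pH and releases it at neutral pH. In suckling rodents it takes IgG from milk across the enterocyte into the body. The heavy chain folds like a class I histocompatibility molecule and leaves the endoplasmic reticulum only in a complex with beta-2-microglobulin, the light chain encoded by B2m. B2m is shared with the classical class I molecules that present peptides to T cells. Pigr encodes the polymeric immunoglobulin receptor, which works in the other direction. It picks up dimeric IgA on the basolateral side of the enterocyte and brings it to the lumen, where the cleaved extracellular part stays with the antibody as secretory component.

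In the mm10 gene models used for counting, Fcgrt lies on the minus strand of chromosome 7 from 45092993 to 45103822, with 7 exons that cover 1738 bases. B2m lies on the plus strand of chromosome 2 from 122147687 to 122153082, with 4 exons that cover 858 bases. Pigr lies on the plus strand of chromosome 1 from 130826684 to 130852249, with 11 exons that cover 3849 bases. None of them shares exon bases with another counted gene on either strand. The 250 bases upstream of each start are shown because the 3 genes moved so differently with age, with letters from RefSeq (GRCm38.p6) and in capitals the sequence motifs found by a search of both strands. The windows are chr7:45103823-45104072 (minus strand) for Fcgrt, chr2:122147437-122147686 (plus strand) for B2m and chr1:130826434-130826683 (plus strand) for Pigr.
Fcgrt: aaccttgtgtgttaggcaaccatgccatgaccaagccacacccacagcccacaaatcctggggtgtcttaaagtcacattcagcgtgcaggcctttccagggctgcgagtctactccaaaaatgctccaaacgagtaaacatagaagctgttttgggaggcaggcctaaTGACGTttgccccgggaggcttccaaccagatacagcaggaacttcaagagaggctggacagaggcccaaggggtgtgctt
B2m: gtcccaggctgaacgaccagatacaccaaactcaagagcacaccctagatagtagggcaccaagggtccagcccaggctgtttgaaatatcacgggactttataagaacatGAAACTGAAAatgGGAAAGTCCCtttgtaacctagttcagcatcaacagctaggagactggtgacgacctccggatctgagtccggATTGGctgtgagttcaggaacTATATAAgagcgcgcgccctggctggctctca
Pigr: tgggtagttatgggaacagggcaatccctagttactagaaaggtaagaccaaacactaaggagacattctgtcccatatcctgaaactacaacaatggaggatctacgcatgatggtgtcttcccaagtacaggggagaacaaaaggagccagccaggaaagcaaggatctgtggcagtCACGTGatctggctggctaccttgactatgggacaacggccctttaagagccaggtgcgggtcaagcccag

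The motifs searched were chosen with these sequences in view, so the matches are descriptions of the letters only. The Fcgrt window held TGACGT, the core of a cyclic AMP response element, 81 bases before the start, a motif in 6.47% of the 32851 RefSeq windows of this length. The B2m window held an interferon response element at 139 bases (GAAACTGAAA, searched with any base at the fifth position, in 0.682% of windows) and an NF-kB motif at 126 bases (GGAAAGTCCC, searched with any base at the sixth position, in 0.356%). It also held CCAAT at 53 bases (as ATTGG, in 33.8% of windows) and the TATA-type TATATAA at 32 bases (in 3.04%). The Pigr window held CACGTG, an E-box of the kind bound by USF1 and USF2, at 71 bases (in 6.02% of windows). Neither GGGCGG (in 32.7% of windows) nor TTCNNNGAA (in 7.02%) was in these letters for any of the 3 genes, and no match overlapped another. GC content was 53.2% for Fcgrt, 50.8% for B2m and 50.4% for Pigr, near the median of 52.4% over all windows, with 5, 8 and 4 CG pairs against a median of 6.

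Library totals ran from 12159237 to 25947276 gene counts. Levels of 1 gene across libraries are given as CPM, counts per library size after edgeR's TMM scaling, and levels of different genes as TPM, which also divides by exon length. The epithelial markers Epcam and Cdh1 were at 1137 to 2229.5 and 792 to 1064 CPM in all 16 libraries. Other enterocyte markers were less even. Alpi had means of 3487 and 2377 CPM in the P6 jejunum and ileum, and 723 and 241 CPM at P36. Fabp2 had means of 5292 and 502 CPM at P6, and 7975 and 2761 CPM at P36, in the same order. B cell markers summed to 0.262 to 3.29 CPM at P6, with Ms4a1 at 0 in the P6 jejunum, and to 5.74 to 74.7 CPM at P36. Scaling by library totals alone shifted the median regional difference of all genes by -0.29 (log2) at P6 and by -0.14 at P36.

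P6 ileum replicate 4, from a male mouse, stood apart from the other 3 P6 ileum libraries in a way that moved with the GC content of transcripts. Over 13357 genes its deviation from the group median had a Spearman rho of -0.749 with GC content, against -0.220 to 0.477 in the other 15 libraries (across genes, which are not independent replicates). Fcgrt, with a transcript GC of 55.9%, is GC-rich among the tested genes, B2m (41.2%) is GC-poor, and Pigr (49.7%) sits near the middle. In that library Fcgrt deviated by -1.81 log2 units from the P6 ileum group median. The median deviation of genes there was -0.69 in the bin around 54.4% GC and -1.20 in the bin around 56.5%. B2m deviated by 0.78, where the median deviation was 0.63 in the bin around 39.7% GC and 0.61 in the bin around 42.8%. P6 ileum replicate 2 held more stroma, with fibroblast and smooth muscle markers summing to 366 CPM against 17.4 to 39.9 CPM in the other P6 ileum libraries. Where leaving out replicate 4, or taking out the GC trend (a correction chosen after seeing the data), moved a result of the 3 receptors or ended a call of another gene, that value is given beside it.

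**Figure D1:**
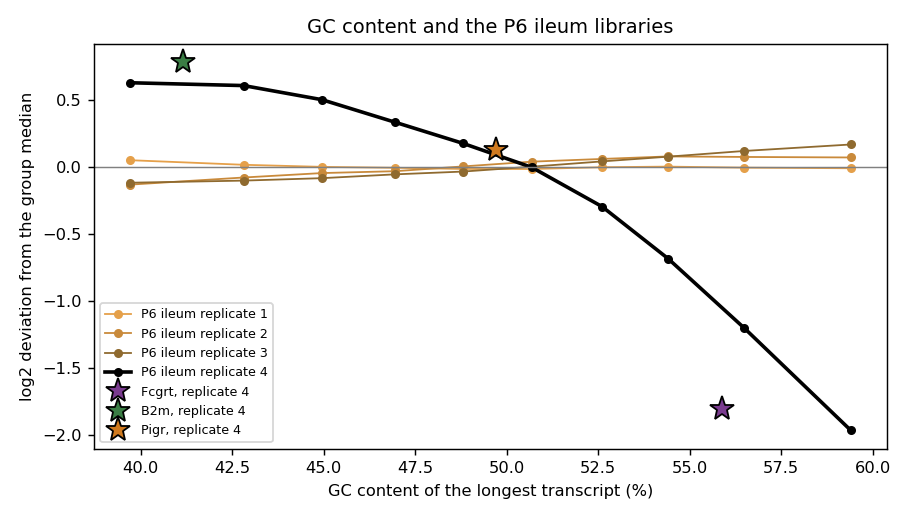
Median log2 deviation from the P6 ileum group median (vertical axis) over 10 equal bins of transcript GC content (horizontal axis, %), 1 line for each of the 4 P6 ileum libraries, with stars for Fcgrt, B2m and Pigr in replicate 4. Replicate 4 runs from above 0 at low GC to below 0 at high GC, B2m lies near its line and Fcgrt lies below it.

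Fcgrt was among the most abundant transcripts of the neonatal jejunum and was low after weaning. In the P6 jejunum it was at 11289.6, 11082, 10218 and 10199 CPM in replicates 1 to 4. In the P6 ileum it was at 1461, 1259, 1033 and 326 CPM. In the P36 jejunum it was at 80.8, 73.2, 87.7 and 85.7 CPM, and in the P36 ileum at 62.3, 61.9, 70.3 and 67.5 CPM. No library of any group reached into the range of another group, in the order P6 jejunum, P6 ileum, P36 jejunum, P36 ileum. Such separation held for 15.0% of tested genes between regions at P6 (toward the jejunum), and with age (higher at P6) for 33.0% in the jejunum, against 23.6% in the ileum. By TPM, Fcgrt ranked 4 or 5 of all genes in each P6 jejunum library, between 36 and 299 in the P6 ileum and between 1582 and 2227.5 at P36.

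At P6 the jejunal mean of Fcgrt was 10697 ± 571 CPM and the ileal mean 1019.8 ± 495 CPM (SD, n = 4), a ratio of 10.5. The fitted log2 difference was 3.39 (SE 0.33, 95% interval 2.68 to 4.10, adjusted p = 2.53e-06 by edgeR's quasi-likelihood test with Benjamini-Hochberg adjustment over all tested genes). Fcgrt met both thresholds used by the study for differential expression (adjusted p under 0.05 and a log2 difference beyond 2), as did 2.2% of tested genes in the direction of the jejunum. Of all tested genes, 106 had a larger log2 difference toward the jejunum. In the 4 mice the jejunum held 7.72, 8.80, 9.90 and 31.3 times the Fcgrt CPM of the same mouse's ileum, and the highest ratio was that of mouse 4. Without P6 ileum replicate 4 the log2 difference was 3.10 (SE 0.16, edgeR adjusted p = 6.35e-09), with the GC trend taken out it was 3.25 (SE 0.23, edgeR adjusted p = 5.99e-08), and without the stroma-rich replicate 2 it was 3.51 (edgeR adjusted p = 1.49e-05).

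At P36 the jejunal mean of Fcgrt was 81.8 ± 6.48 CPM and the ileal mean 65.5 ± 4.11 CPM (SD, n = 4), and the jejunum was higher in 4 of 4 mice, by 1.30, 1.18, 1.25 and 1.27 times. The libraries of the 2 regions did not overlap, as for 13.5% of tested genes in this direction. In the fit over all 16 libraries the log2 difference of 0.32 (SE 0.31, 95% interval -0.33 to 0.97, edgeR adjusted p = 0.545) did not pass the test. In a fit of the 8 P36 libraries alone, where the spread of the P6 libraries does not enter, it was 0.34 (SE 0.09, edgeR adjusted p = 0.0239) and passed.

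Fcgrt fell with age in both regions. In the jejunum the log2 difference was -7.03 (SE 0.40, 95% interval -7.87 to -6.19, edgeR adjusted p = 7.15e-10), and the mean CPM at P6 was 131 times that at P36. In the ileum it was -3.96 (SE 0.34, 95% interval -4.69 to -3.23, edgeR adjusted p = 1.05e-07), and the mean at P6 was 15.6 times that at P36. Both met the thresholds for differential expression, as did in that direction 8.59% of tested genes for the jejunum and 10.0% for the ileum. The regional difference itself differed between ages, by 3.07 (SE 0.44, 95% interval 2.13 to 4.01, edgeR adjusted p = 0.000396 for region by age), a test that 8.69% of genes passed. Without P6 ileum replicate 4 the ileal difference with age was -4.25 (edgeR adjusted p = 1.59e-11; -4.13 with the GC trend taken out) and the difference between ages 2.78 (edgeR adjusted p = 4.69e-07).

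Macrophages also express the neonatal Fc receptor, and the macrophage and dendritic list moved with Fcgrt. Its 6 markers summed to 421 to 511 CPM in the P6 jejunum, 168 to 369 in the P6 ileum, 4.54 to 22.4 in P36 jejunum libraries and 6.14 to 10.8 in P36 ileum libraries. Csf1r alone gave 415 to 498 CPM of the P6 jejunum sum, and the other 5 markers summed to 6.83 to 13.4 CPM there, 16.6 to 35.8 in the P6 ileum, 3.71 to 18.9 in P36 jejunum libraries and 5.53 to 9.73 in P36 ileum libraries. Leaving out Csf1r, the list was thus higher in the P6 ileum than in the P6 jejunum, the reverse of Fcgrt. Most of that remainder was Cd68, whose P6 means were 20.9 (ileum) and 8.52 CPM (jejunum). The paper counts CD68 among the neonatal markers enriched in human infant enterocytes, so the remainder cannot be read as macrophages alone. The part of macrophages and dendritic cells in the Fcgrt levels was not tested.

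**Figure D2:**
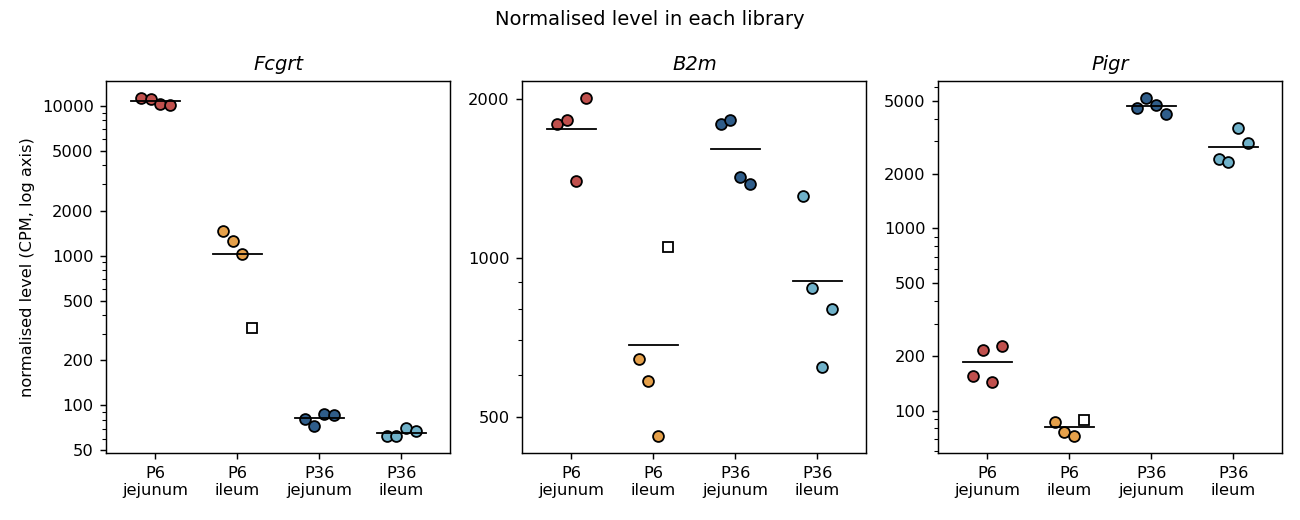
CPM (vertical log axis) of Fcgrt, B2m and Pigr in each of the 16 libraries by group, 1 point per library with a bar at the group mean and an open square for P6 ileum replicate 4. Fcgrt steps down from about 10697 CPM in the P6 jejunum to 65.5 CPM in the P36 ileum, B2m stays between 459 and 2012 CPM throughout, and Pigr is at 2323 CPM or more in every P36 library and at 227 CPM or less in every P6 library.

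B2m, the light chain, was higher in the jejunum at both ages, and its difference with age did not pass the test in either region. It was at 1799, 1829.8, 1402 and 2012 CPM in the P6 jejunum and at 643, 583, 459 and 1051 CPM in the P6 ileum. It was at 1799, 1827, 1427 and 1385 CPM in the P36 jejunum and at 1312, 879, 622 and 801 CPM in the P36 ileum. The regions did not overlap at either age, as for 15.0% of tested genes at P6 and 13.5% at P36 toward the jejunum. The ages overlapped in both regions. By TPM it ranked between 14 and 94 of all genes in every library.

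At P6 the jejunal mean of B2m was 1761 ± 257 CPM and the ileal mean 684 ± 256 CPM (SD, n = 4). The log2 difference was 1.36 (SE 0.26, 95% interval 0.81 to 1.92, edgeR adjusted p = 0.00118), below the fold threshold, in 4 of 4 mice (ratios of 2.80, 3.14, 3.06 and 1.92). At an adjusted p under 0.05 alone, 11.1% of tested genes were higher in the P6 jejunum. Without P6 ileum replicate 4 the difference was 1.65 (edgeR adjusted p = 8.50e-05), with the GC trend taken out it was 1.66 (edgeR adjusted p = 2.57e-05), and without the stroma-rich replicate 2 it was 1.29 (edgeR adjusted p = 0.00503).

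At P36 the jejunal mean of B2m was 1609.6 ± 236 CPM and the ileal mean 903 ± 293 CPM (SD, n = 4). The log2 difference was 0.83 (SE 0.26, 95% interval 0.28 to 1.38, edgeR adjusted p = 0.0382), where 8.3% of tested genes passed toward the jejunum, and the ratios in the 4 mice were 1.37, 2.08, 2.30 and 1.73. This call lay near the threshold. It was lost without jejunum replicate 1 (0.78, edgeR adjusted p = 0.104), jejunum replicate 2 (0.77, 0.100) or jejunum replicate 4 (0.90, 0.0526). It was also lost without ileum replicate 2 (0.84, edgeR adjusted p = 0.0851), ileum replicate 3 (0.69, 0.108) or ileum replicate 4 (0.78, 0.103). T cell and intraepithelial lymphocyte markers summed to 88.4, 7.63, 115 and 9.65 CPM in P36 jejunum replicates 1 to 4 and to 3.35 to 5.64 CPM in the P36 ileum. The part of those cells in the B2m levels was not tested.

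With age, B2m differed by -0.13 (SE 0.26, 95% interval -0.68 to 0.42, edgeR adjusted p = 0.704) in the jejunum. In the ileum it differed by 0.40 (SE 0.26, 95% interval -0.15 to 0.95, edgeR adjusted p = 0.198). Adjusted p was under 0.05 for 51.6% of tested genes with age in the jejunum and for 55.7% in the ileum. Without P6 ileum replicate 4, where B2m was high, the ileal difference was 0.69 (SE 0.23, edgeR adjusted p = 0.0157) and passed, and with the GC trend taken out it was 0.71 (SE 0.21, edgeR adjusted p = 0.00761). The GC-corrected B2m levels of the P6 ileum were 622, 651, 495 and 571 CPM, and those of Fcgrt 1508, 1205, 983 and 611 CPM. The regional difference of B2m at P6 minus that at P36 was 0.53 (SE 0.36, 95% interval -0.24 to 1.30, edgeR adjusted p = 0.410).

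Pigr ran opposite to Fcgrt with age. It was at 156, 215, 144 and 227 CPM in the P6 jejunum and at 87.3, 76.9, 72.2 and 89.1 CPM in the P6 ileum. It was at 4603, 5194, 4767 and 4225 CPM in the P36 jejunum and at 2399.5, 2323, 3548 and 2931 CPM in the P36 ileum. All 4 groups were separate, in the order P36 jejunum, P36 ileum, P6 jejunum, P6 ileum. With age (higher at P36) 30.9% of tested genes were so separated in the jejunum, against 20.8% in the ileum. Between regions (toward the jejunum) 15.0% were at P6 and 13.5% at P36. By TPM it ranked between 28 and 106 of all genes at P36 and between 1398 and 3638 at P6.

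In the jejunum the Pigr mean rose from 185 ± 41.5 to 4697 ± 402 CPM (SD, n = 4), a ratio of 25.3 and a log2 difference of 4.66 (SE 0.22, 95% interval 4.20 to 5.13, edgeR adjusted p = 1.19e-10). In the ileum it rose from 81.4 ± 8.13 to 2800.3 ± 567 CPM, a ratio of 34.4 and a log2 difference of 5.10 (SE 0.22, 95% interval 4.63 to 5.58, edgeR adjusted p = 8.00e-11). Both met the thresholds for differential expression, as did in that direction 7.86% of tested genes for the jejunum and 6.4% for the ileum. Goblet cell markers, which rose with age as Pigr did, summed to 654 to 992 CPM at P6 and 7021 to 7724 CPM at P36 in the jejunum, and to 1531 to 2117 CPM and 9237 to 15390 CPM in the ileum. Between regions the goblet sums were higher in the ileum at both ages, where Pigr was lower. Paneth cell markers summed to 29.0 to 814 CPM at P6 and 4418 to 8766 CPM at P36 in the jejunum, and to 58.4 to 666 CPM and 5424 to 15143 CPM in the ileum. Enterocyte markers summed to 10578 to 13927 CPM at P6 and 14634 to 19965 CPM at P36 in the jejunum, and to 5822 to 7617 CPM and 5190.4 to 18560.2 CPM in the ileum. Within the enterocyte list, mean Alpi was lower and mean Krt20 higher at P36 in both regions. The part of these cell types in the Pigr levels was not tested.

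Pigr was higher in the jejunum than in the ileum at both ages. At P6 the log2 difference was 1.19 (SE 0.19, 95% interval 0.78 to 1.59, edgeR adjusted p = 0.000280), with ratios of 1.78, 2.79, 2.00 and 2.55 in the 4 mice, and it was 1.24 without P6 ileum replicate 4, 1.27 with the GC trend taken out and 1.16 without replicate 2. At P36 it was 0.75 (SE 0.19, 95% interval 0.34 to 1.15, edgeR adjusted p = 0.0131), with ratios of 1.92, 2.24, 1.34 and 1.44. The difference between ages was 0.44 (SE 0.27, 95% interval -0.13 to 1.01, edgeR adjusted p = 0.343). All 3 genes were thus higher in the jejunum in 4 of 4 mice at each age, as were 22.8% of tested genes at P6 and 22.5% at P36.

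**Figure D3:**
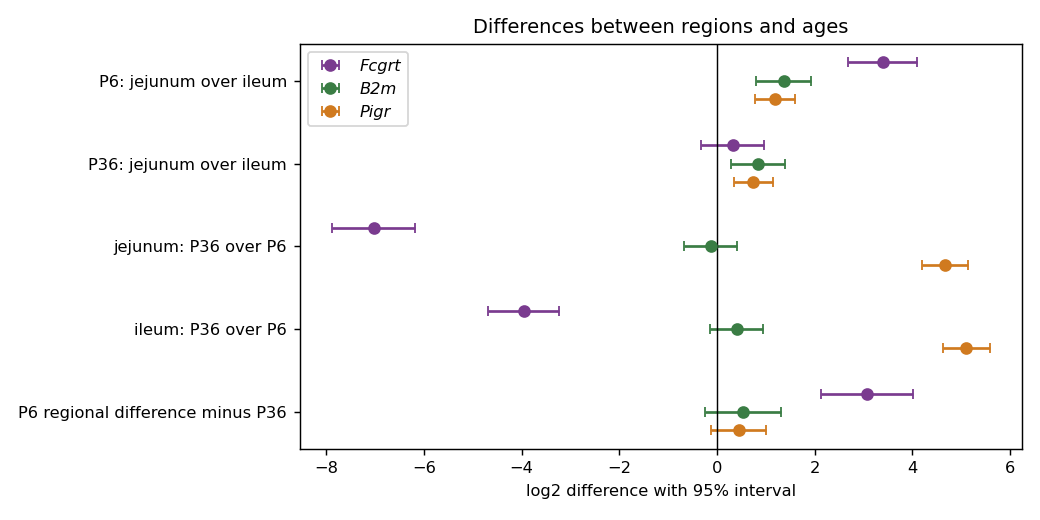
Fitted log2 differences (horizontal axis) with 95% intervals for Fcgrt, B2m and Pigr in 5 comparisons: jejunum over ileum at P6 and at P36, P36 over P6 in the jejunum and in the ileum, and the P6 minus the P36 regional difference. The intervals of Fcgrt and Pigr with age lie on opposite sides of 0, and those of B2m with age include 0.

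On the per-length scale the heavy and light chain of the neonatal Fc receptor stood in very different proportions. Fcgrt was at 12249 ± 605 TPM and B2m at 4067 ± 425 TPM in the P6 jejunum (SD, n = 4), so that each library held 2.50 to 3.60 Fcgrt transcripts per B2m transcript. In the P6 ileum the ratio was 1.12, 1.07, 1.11 and 0.153, and the last value is that of replicate 4. It was 0.0198 to 0.0305 in P36 jejunum libraries and 0.0234 to 0.0558 in P36 ileum libraries. Heavy chain transcripts thus exceeded those of the light chain in all 4 P6 jejunum libraries, about equalled them in 3 of 4 P6 ileum libraries, and were far fewer in all 8 P36 libraries.

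The classical class I heavy chains H2-K1 and H2-D1, which bind the same light chain, were then added to Fcgrt. The summed heavy chain TPM per B2m TPM was 2.93 to 3.92 in P6 jejunum libraries. In the P6 ileum it was 0.429 in replicate 4 and 1.77 to 2.07 in the other libraries. It was 0.587 to 0.650 (jejunum) and 0.634 to 0.722 (ileum) at P36. H2-Q2, above H2-D1 in mean TPM over all libraries, and the remaining class I heavy chains were left out, so the sum does not hold all partners of B2m. Fcgrt made up 85.5 to 91.8% of that sum in the P6 jejunum, and at P36 only 3.17 to 5.17% (jejunum) and 3.24 to 8.81% (ileum). In the P6 ileum its share was 35.7% in replicate 4 and 51.4 to 63.3% in the other libraries.

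The balance of the IgG and IgA receptors turned over with age. There were 99.5 to 161 Fcgrt transcripts per Pigr transcript in the P6 jejunum (TPM ratios). In the P6 ileum there were 8.10 in replicate 4 and 31.7 to 37.1 in the other libraries. There were 22.3 to 32.1 Pigr transcripts per Fcgrt transcript in the P36 jejunum and 16.9 to 22.8 in the P36 ileum. Pigr per B2m was 0.0193 to 0.0261 in P6 jejunum libraries, and at P36 it was 0.570 to 0.745 (jejunum) and 0.408 to 1.27 (ileum). In the P6 ileum it was 0.0189 in replicate 4 and 0.0294 to 0.0351 in the other libraries.

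**Figure D4:**
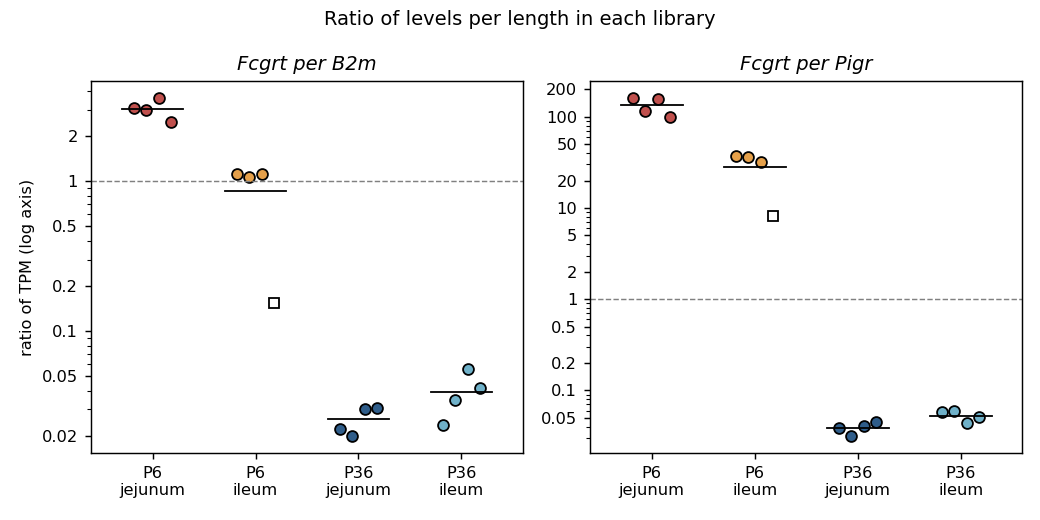
TPM ratios of Fcgrt to B2m and of Fcgrt to Pigr (vertical log axis) in each of the 16 libraries by group, 1 point per library. Fcgrt per B2m is above 1 in all P6 jejunum libraries and below 0.06 in all P36 libraries, and Fcgrt per Pigr is above 8 in all P6 libraries and below 0.06 in all P36 libraries.

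The other class I heavy chains that pair with B2m were examined next, 16 of 20 listed genes being tested. At P6, 3 were called higher in the jejunum by both thresholds and 1 in the ileum, where 6.5% of all tested genes were called in either direction, and the list median of the log2 difference was 0.81 against -0.05 over all genes. The 3 were H2-Q1 (3.57), H2-Q2 (2.75) and H2-Bl (3.90), and the ileal gene was Cd1d1 (-2.40), a lipid-presenting molecule at 0.281 CPM (jejunum) and 1.51 CPM (ileum). H2-Q1 ranged from 127 to 182 CPM across P6 jejunum libraries and from 9.95 to 14.9 CPM across P6 ileum libraries. At P36, H2-Q1 (2.26) and H2-Bl (2.39) were called toward the jejunum, where 3.6% of all tested genes were called in either direction, and the list median was 0.78 against -0.04.

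H2-K1 was the most abundant of these heavy chains, at 891 CPM in the P6 jejunum, 491 CPM in the P6 ileum, and at P36 at 1395 CPM (jejunum) and 808 CPM (ileum). Its regional log2 differences of 0.86 at P6 (edgeR adjusted p = 0.0531) and 0.79 at P36 (edgeR adjusted p = 0.102) were of the same sign as those of B2m and did not pass the test. With mouse as a fixed block both passed, at 0.83 (edgeR adjusted p = 0.0302) and 0.87 (edgeR adjusted p = 0.0319). With age, H2-T24 fell in the jejunum (-2.29, from 10.6 to 2.16 CPM) and the ileum (from 4.83 to 1.19 CPM), H2-Q1 rose in the ileum (2.14), and no other gene of the list was called, where 16.4% of all tested genes were called in each region. Some calls lay near the fold threshold. H2-Q1 between P36 regions was at 1.96 without P36 ileum replicate 3, and H2-T24 in the jejunum at -1.99 without P6 jejunum replicate 2. In the ileum H2-T24 (-2.002) lost the call in 4 of 8 fits with 1 library left out. It also lost the call in 6 of 10 fits under other alternatives, among them DESeq2 (-1.98). It was at -1.89 both without P6 ileum replicate 4 and with the GC trend taken out. H2-Q1 in the ileum was at 1.41 without P36 ileum replicate 1 and 1.80 with mouse as a random block. The classical and H2-Q and H2-T genes are close paralogues, and how reads were split among them was not measured here.

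Genes of class I peptide loading, all 17 tested, had a median log2 difference of 0.92 toward the jejunum at P6, where 9 passed the adjusted p toward the jejunum (11.1% of all tested genes did) and 2 toward the ileum. Both thresholds were passed there by 2 of 17 (6.5% of all tested genes in either direction), the immunoproteasome subunit Psmb8 (2.71) and Nlrc5 (2.47), the transactivator of class I genes. Psmb8 ranged from 65.4 to 87.9 CPM across P6 jejunum libraries and from 3.43 to 18.5 CPM across P6 ileum libraries. The Nlrc5 call was lost in 3 of 8 fits with 1 library left out, with adjusted p between 0.0144 and 0.0716. At P36 no gene of the list was called by both thresholds, and 1 of 17, the proteasome activator Psme2 (0.82), passed the adjusted p alone. With age, where 16.4% of all tested genes were called in each region, the list had no call in the jejunum and 5 of 17 in the ileum, namely Psmb8 (2.90), Psmb9 (2.28), Psmb10 (2.73), the peptide transporter Tap1 (2.01) and Nlrc5 (3.68), all higher at P36. Without P6 ileum replicate 4, in which Psmb10 was at 2.55 CPM against 34.6 to 38.7 CPM in the other 3 libraries, Psmb9 (1.997) and Tap1 (1.81) were under the fold threshold, as was Tap1 in 3 other fits with 1 library left out and with the GC trend taken out (1.79). Calr and Pdia3, the chaperones of heavy chain folding, were the most abundant of the list, with Calr at 1034 CPM in the P6 jejunum, 1425 in the P6 ileum, and at P36 at 852 (jejunum) and 1007.5 CPM (ileum).

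Of 16 other Fc receptors and Fc binding proteins listed, 9 were tested, and none was called between regions at either age or passed the adjusted p alone there. The most abundant was Fcgbp, the IgG Fc binding protein of mucus, at 1149.6 CPM in the P6 jejunum, 1507 in the P6 ileum, and at P36 at 4352 (jejunum) and 6015 CPM (ileum). It differed with age by 1.92 in the jejunum (edgeR adjusted p = 0.000322) and 2.00 in the ileum (edgeR adjusted p = 0.000218), just under the fold threshold. Trim21, the cytosolic IgG receptor, stayed between 10.2 and 13.8 CPM in every library.

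In the jejunum 6 of the 9 tested Fc receptor genes were called higher at P36, where 7.86% of all tested genes were, namely Fcrla, Fcer2a, Fcrl1, Fcmr, Fcer1g and Fcgr2b. All of these but Fcer1g had almost no counts in the P6 jejunum and passed the count filter through P36 libraries. Such genes could be called only higher at P36, so 6 of 9 cannot be weighed against that share. Fcrla, Fcer2a, Fcrl1 and Fcmr, which B cells express, had 1, 1, 1 and 0 counts over the 4 P6 jejunum libraries and 94, 87, 57 and 61 over the 4 P36 jejunum libraries. P36 jejunum replicate 3 carried most of these, at 2.78, 3.19, 1.71 and 2.16 CPM, against 0 to 0.853 CPM in the other 3. Without it Fcmr (edgeR adjusted p = 0.0670), Fcer1g (0.0590) and Fcgr2b (0.131) were not called. With mouse as a random block (limma with voom) Fcer2a (adjusted p = 0.110), Fcrl1 (0.149) and Fcmr (0.169) were not. B cell and plasma cell markers moved with them, from 0.262 to 0.335 CPM at P6 to 5.74 to 74.7 CPM at P36, and the part of those cells was not tested. In the ileum Fcrla was called higher and Fcgr3 lower at P36, calls lost in 5 of 8 and 4 of 8 fits with 1 library left out, and both with mouse as a random block (limma adjusted p = 0.402 and 0.0518).

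Genes of IgA supply, 14 of 22 tested, had more calls toward P36 than toward P6. Lymphocyte genes of the list such as Jchain and Mzb1 had almost no counts at P6 and passed the count filter through P36 libraries. Their direction with age was thus set by the filter. The calls and list medians with age include these genes, so they cannot be weighed against the values over all genes. In the jejunum 9 were called higher and none lower at P36 (7.86% and 8.59% of all tested genes), with a list median of 2.51 against -0.01 over all genes. In the ileum 6 were called higher and 1 lower (6.4% and 10.0% of all tested genes), with a median of 1.68 against -0.03. Among epithelial products, Ccl25, the chemokine that draws gut-homing lymphocytes, rose by 2.26 in the jejunum (edgeR adjusted p = 2.75e-09) and by 2.44 in the ileum (edgeR adjusted p = 1.51e-09), from 117 and 71.1 CPM to 559 and 385 CPM. Ccl28, which attracts IgA plasma cells, rose by 2.55 and 2.23, from 9.14 and 11.6 CPM to 53.4 and 54.6 CPM. Tnfsf13, the class switch factor APRIL, whose cell source was not tested, rose by 2.47 and 4.91, at 0.845 and 0.130 CPM at P6 and 4.74 and 4.15 CPM at P36. Its P6 ileum libraries lay near the floor, between 0 and 0.294 CPM.

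Jchain, the chain that joins IgA monomers into the dimers Pigr binds, had 1 count over the 4 P6 jejunum libraries and 17 over the 4 P6 ileum libraries, against 1757 and 1004 counts at P36. It is a product of plasma cells and belongs to the B cell list whose sum is given above. The jejunal calls also included Mzb1, Pou2af1, Itgb7, Itga4 and Tnfrsf13c, all genes of lymphocytes (Tnfrsf13c was not called without P36 jejunum replicate 3, edgeR adjusted p = 0.0516), and the gene called lower in the ileum was Tgfb1 (-3.06, from 6.74 to 0.811 CPM). Il15, a further cytokine of the list, differed with age by 1.66 (jejunum) and 1.12 (ileum) and passed the adjusted p alone. Between regions only Tnfsf13 (2.62) and Itga4 (-2.39) were called at P6 and none at P36, and the Itga4 call was lost without P6 jejunum replicate 3 (edgeR adjusted p = 0.0526) or 4 (0.0583).

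Genes of receptor trafficking, 23 of 24 tested, had no call by both thresholds between regions at either age. At P6, 4 of 23 passed the adjusted p alone toward the jejunum (11.1% of all tested genes did) and 0 toward the ileum. At P36, 1 passed it in each direction. With age 2 of 23 were called lower at P36 in each region, near the share of all tested genes (8.59% in the jejunum, 10.0% in the ileum). Rab11fip5, an adaptor of the Rab11 recycling endosome, fell from 362 to 0.360 CPM in the jejunum and from 350.1 to 0.184 CPM in the ileum, log2 differences of -10.02 (edgeR adjusted p = 1.17e-09) and -10.79 (edgeR adjusted p = 1.19e-09). Rab8b (-2.01) was called in the jejunum and Rab11fip2 (-2.14) in the ileum, both near the fold threshold. Rab11fip2 was at -1.86 without P6 ileum replicate 4 and -1.85 with the GC trend taken out, and Rab8b at -1.90 to -1.94 without P36 jejunum replicate 3 or 4 or P6 jejunum replicate 1. Rab8b was also under the fold threshold with DESeq2 (-1.994), median-of-ratios scaling (-1.994), library totals alone (-1.91) and only the groups compared (-1.997). Rab11a, the small GTPase of apical recycling, differed by -1.55 and -1.68 (449 and 536 CPM at P6, 153 and 167 CPM at P36), and Ap1m2, the epithelial sorting adaptor subunit, by -1.23 and -0.91, all past the adjusted p and under the fold threshold. The list medians with age were -0.14 and -0.11, near those over all genes, -0.01 and -0.03.

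The receptors and factors known to induce Pigr, 21 of 22 tested, had 2 calls with age in the jejunum and 3 in the ileum, all higher at P36, where 7.86% and 6.4% of all tested genes were. Tlr3, the receptor for double-stranded RNA, rose from 1.71 to 49.7 CPM in the jejunum (4.85, edgeR adjusted p = 5.79e-10) and from 1.93 to 51.2 CPM in the ileum (4.73, edgeR adjusted p = 8.94e-10). Il17rc, a chain of the IL-17 receptor, rose from 11.2 to 145 CPM (3.70) and from 6.82 to 188 CPM (4.79), and Relb rose in the ileum (2.08, but 1.79 without P6 ileum replicate 4 and 1.87 with the GC trend taken out, under the fold threshold). The interferon gamma receptor chain Ifngr1 differed by 1.08 and 1.00, past the adjusted p and under the fold threshold. Irf1, the interferon-induced factor, was at 237 CPM in the P6 jejunum, 112 in the P6 ileum, and at P36 at 232 (jejunum) and 195 CPM (ileum), with a log2 difference of 1.08 between regions at P6 (edgeR adjusted p = 0.000103). Tlr4, the endotoxin receptor, was higher in the ileum at both ages (-4.04 at P6 and -3.62 at P36) at low levels, 0.107 and 0.192 CPM in the jejunum against 1.83 and 2.38 CPM in the ileum.

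**Figure D5:**
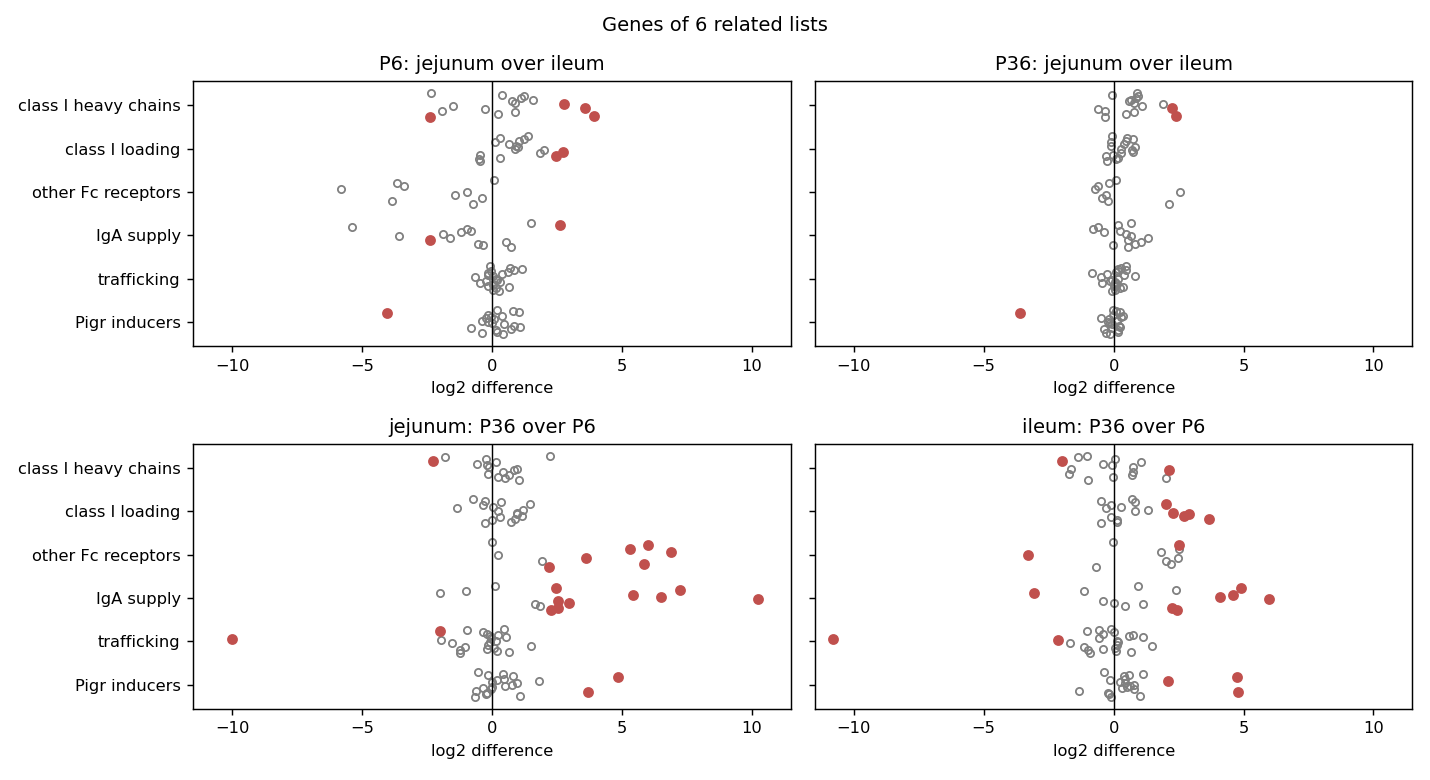
Log2 differences (horizontal axis) of the tested genes of 6 lists, 1 row per list, in 4 comparisons, 1 panel each: jejunum over ileum at P6 and at P36, and P36 over P6 in the jejunum and in the ileum. Each point is a gene, filled red where it passed both thresholds, and calls of the IgA supply list with age lie almost all to the right of 0.

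The genes whose pattern was most like each receptor were found by the root mean square difference of log2 CPM over the 16 libraries, each gene centred on its own mean. For Fcgrt, whose own SD over the libraries was 3.01, these were Adcy3 (0.555), Lim2 (0.595), 1700034O15Rik (0.595), Lrrc4 (0.601) and S100b (0.650). Their levels were far below that of Fcgrt, with Adcy3 at 43.1 CPM in the P6 jejunum, 2.30 in the P6 ileum and 0.262 and 0.207 at P36. Lim2 and 1700034O15Rik were at 0 CPM in both P36 groups, and S100b at 0.0147 (jejunum) and 0 CPM (ileum). The prior count thus set their log2 values at P36. For B2m (own SD 0.675) they were Samhd1 (0.169), Apobec1 (0.243), Sar1b (0.244), Scp2 (0.277) and Mir31 (0.290). Samhd1 was at 126, 56.5, 143 and 69.3 CPM in the P6 jejunum, P6 ileum, P36 jejunum and P36 ileum. For Pigr (own SD 2.50) they were Krt20 (0.489), Tnfaip8l3 (0.544), Celf5 (0.546), Rgs13 (0.581) and Abcc3 (0.583), with Krt20, a keratin of mature villus enterocytes, at 104, 44.5, 1911.6 and 1798.6 CPM in the same order.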

How the data were processed

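Each library's table held raw counts per gene, made by the authors and deposited without normalization. Per the labels, poly(A) libraries (stranded Kapa kit) were trimmed with Trimmomatic 0.38, aligned to mm10 with STAR 2.5.3 and counted over exons with featureCounts of Subread 1.6.3, which the file headers show run on fragments with the reverse strand setting. Totals were 12159237 to 25947276 counts, and counts were used as deposited.

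In R 4.3.3, edgeR 4.0.16 fitted 4 group means to all 16 libraries (TMM scaling, filterByExpr, 13429 genes) with the quasi-likelihood test and Benjamini-Hochberg adjustment. Differential expression meant adjusted p under 0.05 and an absolute log2 difference above 2, and for region by age adjusted p alone. SE was the log2 difference over the square root of F. CPM used TMM-scaled totals, TPM used the Length column, and likeness used log2 CPM with a prior count of 2. The script was tested on simulated counts.

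Jejunum and ileum of a mouse share a replicate number. Deviations from group means correlated within mice (r of 0.157 to 0.391 at P6 and 0.240 to 0.347 at P36, against means of -0.106 and -0.101 between mice), so mouse was tried as a block. Other alternatives were other scalings, filters, DESeq2 1.42.0, limma 3.58.1 with voom, sex as a covariate, the compared groups alone, each library left out, and, added after seeing the data, a GC correction (loess, span 0.3, on transcript GC content of 13357 genes, used as an offset). All replicate pairs differed by more than sampling noise. The 3 genes, the lists and the tests were chosen with earlier results of these data known. Named genes were the 3 receptors, the 3 most abundant by TPM and up to 4 called genes of each list per comparison, and the 5 most alike per receptor. Genes outside that rule were named after their values were seen. Promoter letters came from RefSeq windows, and all 3 symbols matched.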

Additional observations from a re-analysis of the deposited data

Results flagged for a closer look

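Fcgrt was flagged because its regional difference itself differed between ages, by 3.07 (log2, edgeR quasi-likelihood test, adjusted p = 0.000396). Among the list genes named above the same test passed for Rfx5 (1.03), Tapbpl (1.46), Psmb8 (1.95), Irf1 (0.83) and Tnfsf13 (2.44), whose jejunum over ileum difference was larger at P6, and for Cd1d1 (-2.05) and Itgb7 (-2.95), with the opposite sign. With 1 of the 16 libraries left out in turn, Fcgrt, Rfx5, Tapbpl and Itgb7 kept the call in every fit, and it was lost in 4 of 16 fits for Irf1, 8 for Psmb8, 11 for Cd1d1 and 13 for Tnfsf13. With mouse as a fixed block the call was lost for Cd1d1 (edgeR adjusted p = 0.0756) and Tnfsf13 (edgeR adjusted p = 0.0627).

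Of 125 groups of 4 libraries in which a gene reached 5 CPM or a ratio was formed, 12 (9.6%) held a library far from the other 3 by Dixon's test, where chance flags about 1 in 20. The Fcgrt to B2m TPM ratio of the P6 ileum was among them, at 0.153 in replicate 4. The same library was the low one for Fcgbp (461 CPM), H2-Q2 (64.2 CPM), Psmb10 (2.55 CPM), Relb (5.15 CPM) and Tapbpl (18.5 CPM). P36 ileum replicate 1 was the high one for H2-Q2 (288 CPM), Psmb10 (195 CPM) and Rab8b (43.7 CPM). The others were Rab8b in P6 jejunum replicate 1 (high, 156 CPM), Rab11fip2 in P6 jejunum replicate 3 (low, 7.88 CPM) and Tnfsf13 in P36 ileum replicate 3 (high, 7.27 CPM). The cause of these values was not tested.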

How the results depend on the processing

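For Fcgrt, B2m and Pigr, direction and side of the threshold held under all alternatives run, except for Fcgrt between P36 regions with only the groups compared (0.34, passing) and for B2m. Between P36 regions B2m ran from 0.69 to 1.07 with 1 library left out (adjusted p 0.00755 to 0.108). B2m with age in the jejunum ran from -0.23 to 0.0068, the sign turning without P36 jejunum replicate 3, and in the ileum from 0.17 to 0.69 (0.71 with the GC correction, passing). B2m by region and age passed with the replicate block plus the GC correction (0.84) or without P6 ileum replicate 4 (0.71); the mouse block changed no other call of the 3 genes. Genes called for region by age (1167) ran from 835 to 1912 with 1 library left out, and were 2141 with block and GC correction and 2276 with the block without P6 ileum replicate 4. List genes called were 9 between P6 regions (14 with DESeq2, 8 to 12 with 1 library left out). Between P36 regions they were 3 (5 with the block, alone or with the GC correction or without P6 ileum replicate 4). With age in the jejunum they were 20 (12 with a mean CPM of at least 1, 11 with the compared groups alone). For region by age they were 7 (15 with DESeq2, 11 and 12 with mouse as a fixed and random block, 12 with the GC correction, 17 with both, 19 with the block without P6 ileum replicate 4, 3 to 17 with 1 library left out). The cause of these shifts was not tested. CPM in place of TPM, which drops the length correction, moved mean Fcgrt per B2m to 6.17, 1.75, 0.0521 and 0.0788 (P6 jejunum, P6 ileum, P36 jejunum, P36 ileum) and Fcgrt per Pigr to 60.0, 12.8, 0.0176 and 0.0239. By both thresholds (adjusted p alone for region by age), the 60 calls of list genes were lost in 77 of 536 fits with 1 library left out, 20 of them by the fold alone, and in 35 of 624 fits under other alternatives. Counts at P6 of the lymphocyte genes were too few for folds.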

Other observations

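B2m at P36 was lower in both male than in both female mice in each region, at 1427 and 1385 against 1799 and 1827 CPM in the jejunum and at 622 and 801 against 1312 and 879 CPM in the ileum. At P6 it was not, with 1402 and 2012 CPM in males and 1799 and 1829.8 CPM in females in the jejunum. With 2 mice of each sex the difference was not tested.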
